A study of Homo sapiens with 10 samples.

Results

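The distribution of γH2AX in HepG2 cells 1 h after irradiation was set against that of H2AX in untreated HepG2 cells. HepG2 is a human hepatocellular carcinoma line. By their titles, 3 of the 10 libraries of the series belong to this comparison: 1 γH2AX library and 2 H2AX libraries, called H2AX R1 and R2. The γH2AX cells received 6 Gy of ionising radiation from a 60Co source, recovered for 1 h, and were profiled with the mouse monoclonal antibody of clone JBW301. The H2AX cells were untreated, and the antibody given for them is a rabbit polyclonal against histone H4, so the label of the library and that of its antibody name different histones. Irradiation, antibody and group therefore coincide and cannot be told apart. The 7 other libraries come from the erythroleukaemia line K562: γH2AX at 1 h (n = 2) and 24 h (n = 2) after the same dose, H3K27me3 at 1 h (n = 1) and untreated H2AX (n = 2). Whether replicates are separate cultures is not stated, so the spread between them may be technical.

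H2AX is a variant of histone H2A that is built into nucleosomes throughout the genome. After a DNA double-strand break the kinases ATM, DNA-PK and ATR phosphorylate its C-terminal tail, and the phosphorylated form, γH2AX, spreads over large chromatin domains around the break and recruits the adaptor protein MDC1. CUT&RUN maps such marks by tethering micrococcal nuclease to the antibody in permeabilised cells and sequencing the DNA it releases. The study's design text states that recognition of double-strand breaks was examined by γH2AX profiling in different cell types.

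Coverage was read as mean depth per base in bins of 1 kb on hg19 and divided by the mean of its library without chromosome Y. A level of 1 is thus the library mean. Levels describe where a library's reads lay and not how much of the mark there was. Mean depth was 0.518 in γH2AX, 0.620 in H2AX R1 and 0.637 in H2AX R2, or about 35.7, 42.7 and 43.8 M reads, so γH2AX was the shallowest of the 3 libraries. Bins without any coverage made up 3.09% of γH2AX, 1.83% of H2AX R1 and 1.84% of H2AX R2. The line was checked on segments that K562 has lost or gained. Over 94 windows of 100 kb where K562 H2AX lay under 0.05, 90 of them on chromosome 9 between 20800001 and 40100000, the median level was 1.08 in HepG2 γH2AX and 0.950 and 0.968 in HepG2 H2AX, against 0.00113 and 0.00122 in K562 H2AX. Over 61 windows at 4 or more in K562 H2AX it was 0.763 in HepG2 γH2AX and 0.912 and 0.905 in HepG2 H2AX, against 6.14 and 5.64 in K562 H2AX, so all 3 libraries lacked both K562 features. The H2AX replicates differed by 3.13 times the variance that sampling of reads gives over 100-kb windows, so they are not a library deposited again.

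By chromosome, γH2AX lay below both H2AX libraries on chromosomes 22, 17 and 19, and above both on chromosomes 4, X and 13. Chromosomes 17, 19 and 22 are known as gene-rich, and 4, 13 and X as gene-poor. On chromosome 22 the level was 0.705 in γH2AX, against 0.865 and 0.832 in H2AX R1 and R2, which gave log2 ratios of -0.29 and -0.24. The replicates themselves differed there by 0.06 (R1 over R2), their largest difference on any of the 23 chromosomes. On chromosome 17 the level was 0.999 in γH2AX, against 1.14 and 1.10 in H2AX, with log2 ratios of -0.19 and -0.14. On chromosome 19 it was 0.668 in γH2AX, against 0.752 and 0.731 in H2AX, with log2 ratios of -0.17 and -0.13. Chromosomes 20 and 16 followed, both with H2AX levels above the library mean. Chromosome 20 stood at 1.66 in γH2AX, against 1.77 and 1.76 in H2AX, and chromosome 16 at 1.23 in γH2AX, against 1.30 and 1.29 in H2AX.

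Chromosome 4 was at the other end of the order. Its level was 1.03 in γH2AX, against 0.939 and 0.953 in H2AX, with log2 ratios of 0.13 and 0.11. Chromosome X had 0.478 in γH2AX, against 0.443 and 0.451 in H2AX, with log2 ratios of 0.11 and 0.08. Chromosome 13 had 1.02 in γH2AX, against 0.968 and 0.987 in H2AX, with log2 ratios of 0.08 and 0.05. In all, γH2AX lay above both H2AX libraries on 11 of 23 chromosomes and below both on 12. It did so by more than the replicates differed on 11 and 11 of them. The log2 ratio to the mean of H2AX spanned 0.384 over chromosomes, from -0.27 on chromosome 22 to 0.12 on chromosome 4. Its SD over chromosomes was 0.0890, against 0.0231 for R1 over R2. With 1 library against 2, an exact permutation test over libraries cannot go below p = 0.333, so these values are given without a test.

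The replicates differed along the same order. On each of the 23 chromosomes H2AX R2 was the middle library. It follows from this that R1 over R2 had the opposite sign to γH2AX over the H2AX mean. Where γH2AX was low, H2AX R1 was thus the highest library, and where γH2AX was high, H2AX R1 was the lowest. Whether both differences have a common source was not tested.

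**Figure D1:**
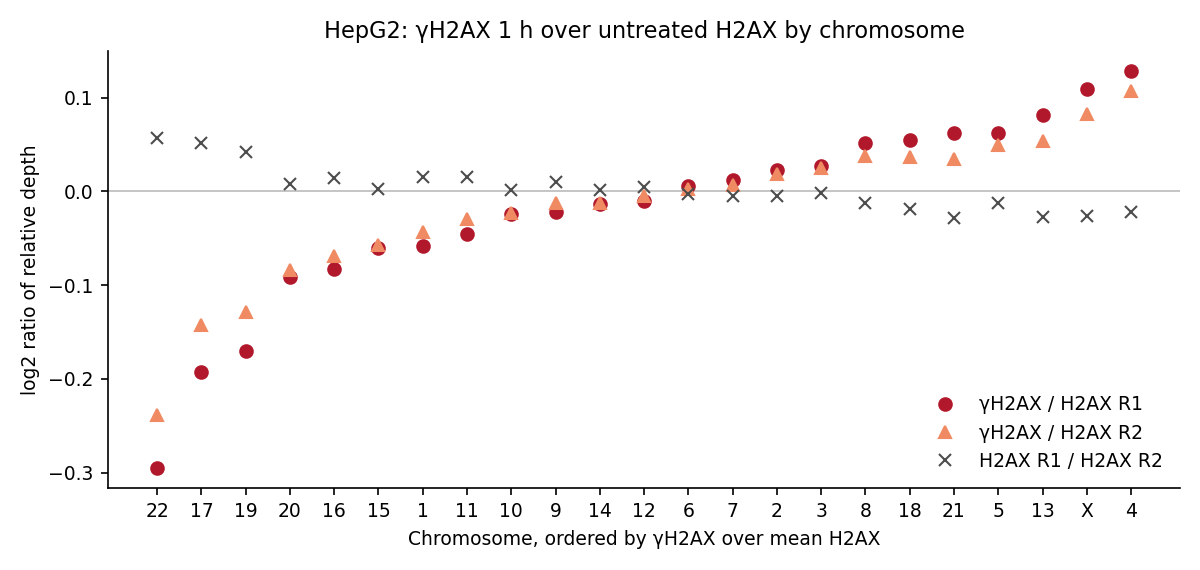
Log2 ratios by chromosome in HepG2, ordered by γH2AX over the mean of H2AX. Markers show γH2AX over H2AX R1 and over H2AX R2, and H2AX R1 over R2 for the replicates. The γH2AX ratios run from near -0.29 and -0.24 on chromosome 22 to 0.13 and 0.11 on chromosome 4, while R1 over R2 stays within 0.06 of 0 and runs the other way.

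Arms showed the order in more detail. Bins fell on 42 arms, split at the widest gap between bins. Of these, 18 lay above both H2AX libraries, 20 below both and 4 between them. The lowest was 22q, the only arm of its chromosome with bins, followed by 19p and 17q. Arm 19p had 0.631 in γH2AX, against 0.726 and 0.696 in H2AX (log2 ratios -0.20 and -0.14). Arm 17q had 1.10 in γH2AX, against 1.26 and 1.21 in H2AX (log2 ratios -0.20 and -0.14).
 The highest ratio was on 21p, where the level was 0.115 in γH2AX, against 0.0906 and 0.0979 in H2AX. This arm holds 10.0 Mb of bins at low coverage, and the replicates differed there by -0.11 (R1 over R2), more than on any other arm. Next came 4q, with 1.05 in γH2AX, against 0.953 and 0.970 in H2AX, and Xq, with 0.489 in γH2AX, against 0.444 and 0.455 in H2AX. On 13 of the 18 chromosomes with both arms, chromosome 21 not counted, the arms lay on the same side of the H2AX mean.

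On some chromosomes the arms differed from each other. Chromosome 6 had a log2 ratio to the H2AX mean of 0.0042 as a whole, with -0.06 on 6p and 0.04 on 6q. Arm 9p had a log2 ratio to the H2AX mean of 0.07 and 9q of -0.07, with replicate differences of -0.0072 and 0.02. Arm 18p had -0.04 and 18q had 0.07. Arm 20q accounted for most of the deficit of chromosome 20: its level was 1.55 in γH2AX, against 1.73 and 1.70 in H2AX, while 20p had 1.80 in γH2AX, against 1.82 and 1.84 in H2AX. On 20p the log2 ratios were -0.0136 over R1 and -0.03 over R2, against -0.0169 for R1 over R2, so the ratio over R1 was smaller than the difference between the replicates.

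Along the arms, γH2AX was low toward the telomeric ends. In the outermost 1 Mb of the arms the median log2 ratio to the H2AX mean was -0.14 over 373 windows of 100 kb. It was -0.17 between 1 and 2 Mb from the end (391 windows) and -0.11 between 2 and 5 Mb (1210 windows). Beyond 20 Mb from the end it was 0.03 over 19741 windows. The median of R1 over R2 was 0.03, 0.05 and 0.02 in the 3 outer zones and -0.0065 beyond 20 Mb, so the replicates again differed in the opposite direction and by less. The outer 5 Mb were lower than the rest of the same arm in 30 of 41 arms, with a median difference of -0.15. The arms 21q, 8q and 4p had the lowest outer ends, at -0.37, -0.35 and -0.31 relative to the rest of the arm. On 18p and 3p the outer end was higher than the rest of the arm, by 0.15 and 0.12. At the centromeric end the innermost 1 Mb had a median of 0.10 (326 windows), with -0.03 for R1 over R2, and the inner 5 Mb as a whole were lower than the rest in 17 of 41 arms. Without the outer 5 Mb of every arm, the log2 ratios of the chromosomes still spanned 0.399.

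**Figure D2:**
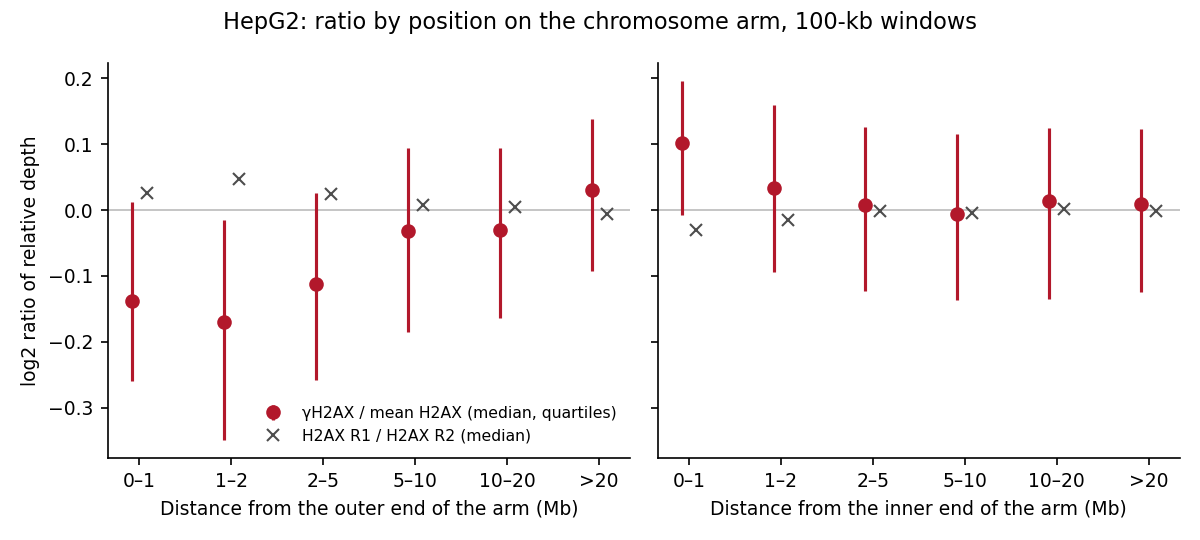
Median log2 ratio over 100-kb windows by distance in Mb from the outer (telomeric) and the inner (centromeric) end of the arm, for γH2AX over the mean of H2AX, with bars for the quartiles over windows, and for H2AX R1 over R2. The γH2AX medians lie between -0.17 and -0.11 within 5 Mb of the outer end and at 0.03 beyond 20 Mb.

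The spread of the ratio was set against that of the replicates at window sizes of 10 kb to 1 Mb. In 1-Mb windows the SD of the log2 ratio was 0.168 over H2AX R1 and 0.131 over H2AX R2, against 0.0471 for R1 over R2 and 0.0162 for sampling of reads alone (n = 2802 windows). The central 90% of windows ran from -0.28 to 0.20 for γH2AX over the H2AX mean, and from -0.07 to 0.09 for R1 over R2. At 100 kb the SDs were 0.203 and 0.168, against 0.0902 for the replicates (n = 27746). At 10 kb they were 0.361 and 0.342, against 0.254 for the replicates, of which sampling alone would give 0.162 (n = 275765). Relative to the replicates the γH2AX ratio was therefore the more spread the larger the window: the SD of γH2AX over the H2AX mean was 1.29 times that of R1 over R2 at 10 kb and 3.16 times at 1 Mb. A split of the 3 variances gave γH2AX an SD of its own of 0.147 at 1 Mb, 0.175 at 100 kb and 0.302 at 10 kb. At 1 Mb the same split gave H2AX R1 a variance of 0.00668 and H2AX R2 one of -0.00446. The split takes the deviations of the 3 libraries as independent, and a variance below 0 goes against that.

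The position of the 3 libraries in each window shows the same. In 1-Mb windows H2AX R2 was the middle library in 2128 windows (75.9%), H2AX R1 in 524 (18.7%) and γH2AX in 150 (5.35%). At 10 kb the shares came closer together, at 40.5% for R2, 36.0% for R1 and 23.5% for γH2AX. γH2AX lay above both H2AX libraries in 49.9% of 1-Mb windows and below both in 44.7%. It lay above both by more than they differed from each other in 42.8% and below both in this way in 38.6%. At 100 kb these last shares were 31.2% and 29.8%, and at 10 kb 21.4% and 23.7%, where 37.9% of windows lay above both and 38.6% below both.

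**Figure D3:**
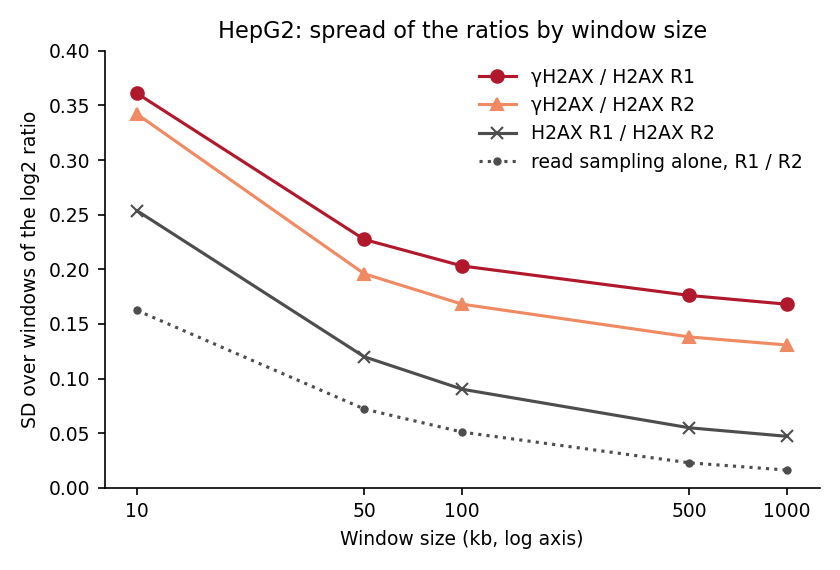
SD over windows of the log2 ratio against window size (10 kb to 1 Mb, log axis), for γH2AX over each H2AX library, for H2AX R1 over R2, and for the SD that sampling of reads alone gives. At 1 Mb the γH2AX ratios have SDs of 0.168 and 0.131, against 0.0471 between the replicates.

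Deviations of γH2AX extended over neighbouring windows. Within chromosomes, the correlation between the log2 ratios of 100-kb windows was 0.671 for adjacent windows, 0.439 at 1 Mb and 0.128 at 5 Mb. That of R1 over R2 was 0.195, 0.120 and 0.0236 at the same distances. Unbroken runs of 100-kb windows above both H2AX libraries numbered 3369, and those of at least 1 Mb numbered 281 and covered 521.7 Mb (18.8% of windows, where 45.2% of all windows lay above both). Runs below both numbered 3181, with 231 of at least 1 Mb over 495.2 Mb (17.8% of windows, where 41.2% of all lay below both). On chromosome 4 such runs covered 84.1 Mb above H2AX and 5.4 Mb below. On chromosome 17 they covered 3.7 Mb above and 42.3 Mb below, and on chromosome 22 none above and 26.7 Mb below. Chromosome X had 25.3 Mb above and none below.

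The longest run below H2AX lay on 1p from 17300001 to 29900000 (12.6 Mb), with a level of 0.721 in γH2AX, against 0.928 and 0.882 in H2AX. The next were on 22q from 21900001 to 32200000 (10.3 Mb), with 0.737 in γH2AX, against 0.921 and 0.882 in H2AX, and on 20q from 30000001 to 37900000 (7.9 Mb), with 1.52 in γH2AX, against 1.86 and 1.79 in H2AX. In these 3 runs the replicates differed by 0.06 to 0.07 (log2 R1 over R2), against γH2AX ratios of -0.36 to -0.23. The longest run above H2AX lay on 4q from 129800001 to 138500000 (8.7 Mb), with 1.12 in γH2AX, against 0.949 and 0.968 in H2AX. It was followed by 1p from 78700001 to 84200000 (5.5 Mb), with 1.05 in γH2AX, against 0.871 and 0.910 in H2AX, and by 16q from 59900001 to 65100000 (5.2 Mb), with 1.52 in γH2AX, against 1.31 and 1.36 in H2AX. Arm 1p thus held a long run in either direction, and 16q carried a run above H2AX although chromosome 16 as a whole lay below.

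Among 1-Mb windows that lay beyond the difference between the replicates, the 3 lowest log2 ratios to the H2AX mean lay within the outer 5 Mb of an arm. The window on chromosome 17 from 79000001 to 80000000 had 0.668 in γH2AX, against 1.04 and 0.921 in H2AX (log2 ratio -0.52). On chromosome 9 from 139000001 to 140000000 the levels were 0.446 in γH2AX, against 0.658 and 0.605 in H2AX (-0.46). On chromosome 16 from 1000001 to 2000000 they were 0.481 in γH2AX, against 0.705 and 0.642 in H2AX (-0.45). In each of these the order of the libraries was γH2AX, H2AX R2, H2AX R1 from low to high. The next 3 were 22q from 20000001 (-0.44), 17q from 74000001 (-0.42) and 11q from 68000001 (-0.40).

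The highest 1-Mb windows included a pair on either side of the centromere of chromosome 7. From 63000001 to 64000000 on 7q the level was 0.656 in γH2AX, against 0.486 and 0.529 in H2AX (log2 ratio 0.34). From 57000001 to 58000000 on 7p it was 0.599 in γH2AX, against 0.441 and 0.484 in H2AX (0.34), over the 686 bins this window holds. The window on chromosome 19 from 22000001 had 0.783 in γH2AX, against 0.591 and 0.660 in H2AX (0.30), although chromosome 19 as a whole lay below H2AX. Windows on chromosomes 8 from 115000001, X from 145000001 and 4 from 33000001 also had 0.30. The window on chromosome 8 had 1.12 in γH2AX, against 0.877 and 0.922 in H2AX.

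At 10 kb the same rule named windows with few reads. The highest, on chromosome X from 105430001 to 105440000, had about 123 reads in γH2AX, against 34 and 60 in H2AX, and a log2 ratio of relative levels of 1.53. The other 2 of the highest, from 42000001 and 143950001 on the same chromosome, had 127 and 93 reads in γH2AX, against 57 and 54 and 52 and 30 in H2AX. The lowest, on chromosome X from 30690001 to 30700000, had 9 reads in γH2AX, against 78 and 67 in H2AX (-2.12). On chromosome 19 from 35550001 there were 25 reads in γH2AX, against 149 and 147 in H2AX (-2.05), and on chromosome 16 from 16580001 there were 4 in γH2AX, against 44 and 42 in H2AX (-2.01).

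A limma fit across all windows, with the spread shared between groups that have 2 libraries, gave few calls. The fit used 9 libraries with 3 residual degrees of freedom, and assumed that the lone γH2AX library varies like the others. At 100 kb, 0 of 27746 windows (0%) had a Benjamini-Hochberg adjusted p under 0.05 (smallest 0.782), and 1726 had an unadjusted p under 0.05, 438 higher and 1288 lower. Without any difference, a share of 0.05 of the 27746 windows would have such a p, and the number lay near that share. In the same fit at 1 Mb the number lay above that share, with most of the windows lower in γH2AX. Without H2AX R1 it lay below that share at 1 Mb. At 100 kb, too, the number and its split rested on the setting. It was 246 without H2AX R1 and 692 without H2AX R2. It split into 649 higher and 1149 lower under median-of-ratios scaling, into 1389 and 1351 with a replicate block, and into 5688 and 5845 with only the HepG2 libraries. At 1 Mb, 4 of 2802 windows (0.143%) passed, all of them higher in γH2AX and all on 9p, from 23000001, 24000001, 25000001 and 29000001. Their log2 ratios were 0.22, 0.22, 0.21 and 0.21, with adjusted p from 0.0119 to 0.0209 by limma. They lie where K562 has lost 9p, and in the first of them the K562 libraries in the fit had levels of only 0.000314 to 0.00331, so the shared spread there rests on values near 0 and on the HepG2 replicates. When windows also had to reach 0.25 in K562 H2AX, 0 of 2789 passed, with 399 at an unadjusted p under 0.05. The 12 named 1-Mb windows described above had adjusted p of 0.294 to 0.378 by limma. With HepG2 γH2AX and the 4 H2AX libraries of both lines, 818 windows of 1 Mb (29.2%) passed, 286 higher and 532 lower, and 5637 of 100 kb (20.3%). With only the 3 HepG2 libraries, where the spread is that of the single pair R1 and R2, 1676 windows of 1 Mb (59.8%) passed, 886 higher and 790 lower, and 8555 of 100 kb (30.8%). The number of calls thus followed from which spread was used, and no γH2AX replicate was there to measure its own.

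The ratio showed no steady relation to the level of HepG2 H2AX. So that the ranking and the denominator shared no library, γH2AX over R1 was ranked by R2 and γH2AX over R2 by R1, over 100-kb windows. Over 5 equal classes of windows, from the lowest to the highest R2 level, the median log2 ratio over R1 was -0.04, 0.01, 0.04, 0.04 and -0.0046. Over 5 classes from the lowest to the highest R1 level, the median over R2 was 0.01, 0.03, 0.02, -0.0011 and -0.02. The highest class minus the lowest was 0.03 in the first ranking and -0.03 in the second, so the direction turned with the choice of library. Relative to the medians of the chromosomes it was 0.08 and -0.02. With the level of K562 H2AX, which shares no library with the ratio, the ratio fell, though not at every step. That level also holds the segments K562 has gained, which were not set apart. Over 10 equal classes of 100-kb windows, ordered by K562 H2AX level, the median ratio to the HepG2 H2AX mean was 0.13 in the lowest. It was 0.103 in the second, 0.107 in the third and -0.16 in the highest. Spearman's rho was -0.515 (r -0.485) over 27610 windows of 100 kb and -0.601 (r -0.578) over 2789 of 1 Mb, negative in 23 of 23 chromosomes at both sizes. HepG2 H2AX R1 over R2 had a rho of 0.248 and 0.482 with that level, again in the opposite direction.

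**Figure D4:**
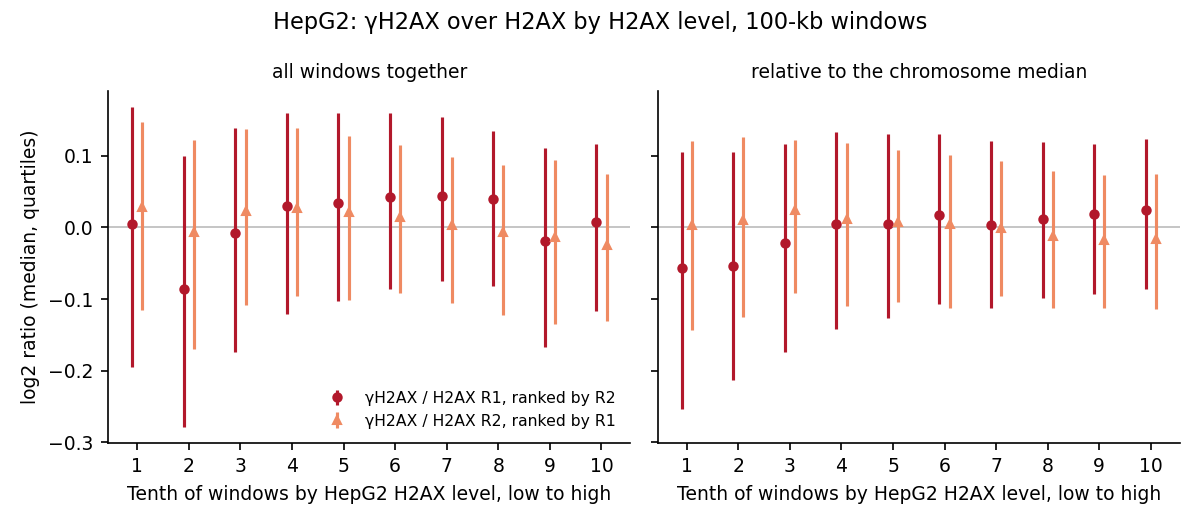
Median log2 ratio of γH2AX over an H2AX library in 10 equal classes of 100-kb windows ranked by the level of the other H2AX library, for both choices of library, with bars for the quartiles, for all windows together and relative to the medians of the chromosomes. The medians lie between -0.09 and 0.04. Relative to the medians of the chromosomes, those over R1 run from -0.06 in the lowest class to 0.02 in the highest. Those over R2 run the other way, from 0.02 in the third class to -0.02 in the highest.

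The ratio was then set beside K562 libraries, which share no library with it. The K562 24 h, 1 h and H3K27me3 ratios share K562 H2AX as their denominator, so they are not separate readouts. The level of that denominator had a rho of -0.601 with the HepG2 ratio at 1 Mb. Correlations over windows describe the libraries only, since windows share their place in the genome and with it base composition, mappability and neighbours. Over 2789 windows of 1 Mb, the HepG2 ratio had a Spearman's rho of 0.893 (Pearson's r 0.889) with the ratio of K562 γH2AX at 24 h, replicate 2, to K562 H2AX. Within chromosomes rho was positive in 23 of 23, from 0.536 on chromosome 22 to 0.934 on chromosome 1. At 100 kb rho was 0.725 (r 0.722, n = 27610). The K562 24 h ratio rests on 1 library, since replicate 1 was left out. Its coverage steps of 41 bp equal those of the HepG2 libraries. Over 10 equal classes of 100-kb windows, from the lowest to the highest K562 24 h ratio, the HepG2 median ran from -0.25 to 0.15, and that of H2AX R1 over R2 from 0.07 to -0.04. In the 6 lowest named 1-Mb windows the K562 24 h ratio was -0.50 to -0.35, whereas the K562 1 h ratio there was -0.07 to 0.69.

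The difference between untreated replicates followed the same pattern. The ratio of K562 H2AX replicate 1 to replicate 2, both untreated, had a rho of -0.875 (r -0.867) with the HepG2 γH2AX ratio over the 1-Mb windows, and of 0.717 (r 0.717) with HepG2 H2AX R1 over R2. A pattern over the genome that aligned with γH2AX over H2AX in HepG2 was therefore also present between libraries of the same untreated group, in both lines. Its source was not tested.

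The K562 γH2AX libraries at 1 h, the matching time, were less alike to HepG2. With their ratio to K562 H2AX, the HepG2 ratio had a rho of 0.284 (r 0.188) over 1-Mb windows, positive in 17 of 23 chromosomes. The medians of the HepG2 ratio over 10 such classes of the K562 1 h ratio were -0.10 in the lowest, 0.12 in the seventh and -0.11 in the highest, so at 100 kb both ends of the K562 1 h order lay below HepG2 H2AX. Over classes of 1-Mb windows they were -0.04 in the lowest, 0.15 in the ninth and 0.0094 in the highest, so the turn at the top was also there but ended near 0. The K562 1 h libraries also differ from HepG2 γH2AX in the read length inferred from coverage, which lay in steps of 60 bp rather than 41 bp. K562 24 h replicate 2 has steps of 41 bp, so between the K562 γH2AX libraries time and coverage step cannot be told apart. With H3K27me3, a Polycomb mark of silent genes, over K562 H2AX the rho was -0.684 (r -0.645) over 1-Mb windows and -0.403 (r -0.390) over 100-kb windows. Over 10 classes of 100-kb windows the median HepG2 ratio was 0.05 in the lowest, 0.13 in the next and -0.16 in the highest, so the course at 100 kb was not a steady one. Over 10 classes of 1-Mb windows it fell at every step, from 0.17 in the lowest to -0.15 in the highest. The single H3K27me3 library also has steps of 60 bp, and 26.5% of its bins were at 0.

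**Figure D5:**
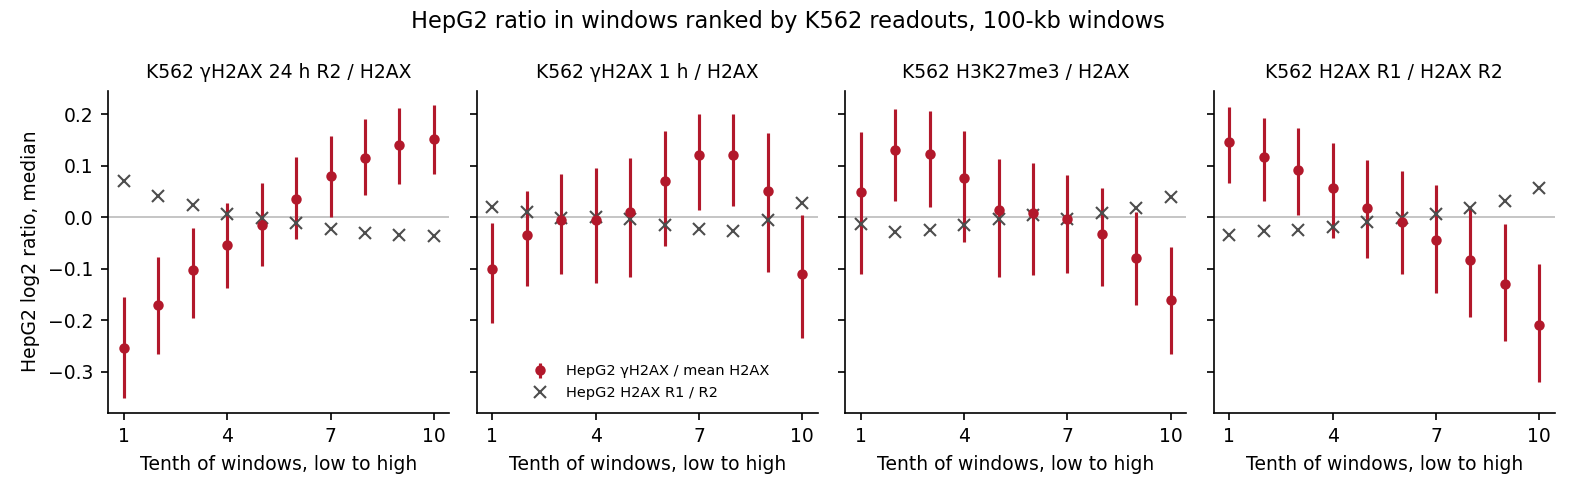
Median log2 ratio of HepG2 γH2AX over H2AX, and of H2AX R1 over R2, in 10 equal classes (tick labels 1 to 10) of 100-kb windows ranked by K562 readouts that share no library with them, with bars for the quartiles of the γH2AX ratio. The HepG2 ratio runs from -0.25 to 0.15 along the K562 24 h ratio, turns back along the K562 1 h ratio, and is lowest, at -0.16 and -0.21, in the highest class of H3K27me3 and of K562 H2AX R1 over R2. The replicate ratio runs the other way along the 24 h ratio.

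The authors' deposited list for HepG2 γH2AX holds 170 narrow peaks, and these lay almost entirely outside the bins. Of the 170, 169 were centred outside the binned sequence and 133 in the gaps that separate the arms, so they fell outside the windows described above. The median length was 62.5 bp, and all peaks together covered 15.9 kb. On chromosome 16, 67 peaks (39.4% of the list) lay within 49.6 kb between 46385920 and 46435541, and on chromosome 10, 21 peaks lay between 42365148 and 42396182. In the authors' deposited table the fold enrichment of all 170 peaks had a median of 7.80 and ranged from 2.81 to 40.5. Chromosome Y, left out of the levels above, held 14 of the peaks and the highest folds in the authors' list, 40.5, 39.9 and 36.5. The clusters named on chromosomes 16 and 10 reached folds of 24.3 and 7.95 in that list. The 1 peak inside the bins, on chromosome 1 from 236260647 to 236260689, had a fold of 8.11 in the authors' list. Its 1-kb bin had a level of 2.65 in γH2AX, against 0.324 and 1.02 in H2AX.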

How the data were processed

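CUT&RUN of 10 libraries was analysed, 3 of them from HepG2. Per the submitters' processing notes the build is hg19 and the tools include BWA 0.7.12, SAMtools and MACS2, without roles or settings. The deposited signal is coverage per base, averaged over bins of 1 kb and not scaled to depth. Whole reads were inferred from coverage steps of 41 bp, on which 59.2% to 65.0% of thin bins (under 250 thousandths) of the HepG2 libraries fell. The deposited peak list gives a fold enrichment, a score, and −log10 of p-values and q-values, in the layout of MACS2; no source used here names the control behind the fold. The deposited score and −log10 columns were not used.

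Each track was divided by its mean without chromosome Y and averaged in windows where 50% or more of the bins exist, with a HepG2 H2AX level of at least 0.25, which kept 27746 of 28063 windows of 100 kb and 2802 of 2819 of 1 Mb. Chromosomes and arms had no level filter. Ratios of windows are on log2(level + 0.05), so they understate changes of low windows. Those of chromosomes, arms and runs have no pseudocount. limma 3.58.1 in R 4.3.3 (mean-variance trend, group means, Benjamini-Hochberg) left out K562 24 h replicate 1, which had been reported to read 0 where 1 h tracks are high; 35.7% of its bins are at 0. Named windows comprise the 6 highest and 6 lowest of 1 Mb and 3 and 3 of 10 kb that lay outside both H2AX libraries by more than these differ, and the 3 longest runs in each direction. Members, lists and tests were chosen with earlier results of these data known. No hg19 genome or annotation was used here, so no genes were assigned, the planned gene groups were not run and no sequence is shown. The steps were tested on simulated data, and on these the fit with 9 libraries had little power for small changes, least at 100 kb. A lack of calls does not show that windows did not differ. Python 3.11.15, numpy 2.4.6, pandas 2.3.3 and scipy 1.17.1 were used. Depth limits windows of 10 kb most, with a median of about 125 reads in γH2AX.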

Additional observations from a re-analysis of the deposited data

Results flagged for a closer look

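On 10 of 23 chromosomes every HepG2 pair of γH2AX over H2AX libraries lay on the opposite side of 0 from every K562 pair at 1 h. The difference between the lines was not tested. The log2 ratios by chromosome were -0.17 in HepG2 and 0.15 in K562 on chromosome 17, 0.10 and -0.04 on X, 0.04 and -0.11 on 8, 0.05 and -0.10 on 18, and 0.05 and -0.06 on 21. They were -0.05 in HepG2 and 0.04 in K562 on chromosome 1, -0.04 and 0.06 on 11, -0.01 and 0.06 on 14, -0.01 and 0.01 on 12, and 0.01 and -0.04 on 7. On chromosome 17 the K562 pairs spread from 0.04 to 0.25. On chromosome 12 the HepG2 ratio over R2 was smaller than the difference between the replicates. On chromosomes 2, 3, 4, 10, 15, 16, 19 and 20 every pair of both lines lay on the same side of 0. On 5, 6, 9, 13 and 22 the K562 pairs lay on both sides. The K562 1 h libraries have coverage steps of 60 bp, against 41 bp in the HepG2 and K562 H2AX libraries.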

How the results depend on the processing

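The number of windows called depended on which libraries set the spread. At 100 kb, 0 windows passed with 9 libraries. There were 5637 with HepG2 γH2AX and the 4 H2AX libraries, 8555 with only the 3 HepG2 libraries, and 5 without the level filter. At 1 Mb, 4 passed with 9 libraries. There were 818 and 1676 with those smaller sets, and 0 with all 10 libraries, with a pseudocount of 0.01, or when K562 H2AX also had to reach 0.25 (chosen after seeing the data). Leaving out either H2AX replicate gave 0 to 0 calls at 100 kb and 5 to 5 at 1 Mb. A replicate block gave 0 calls at 100 kb and 3 at 1 Mb. No paired analysis was possible because γH2AX has 1 library and the groups share only 1 replicate number. Between R1 minus R2 of HepG2 H2AX and that of K562 H2AX, Pearson's r was 0.305 at 100 kb and 0.717 at 1 Mb, and between HepG2 H2AX and K562 γH2AX at 1 h it was 0.0274 and -0.05. Between K562 H2AX and K562 γH2AX at 1 h it was 0.178 and 0.172. As it did not pass 0.1 for every pair, the numbers were not taken to pair samples. Each fit at 1 Mb named next tested 2802 windows. At 1 Mb, unadjusted p under 0.05 split into 56 higher and 351 lower with 9 libraries, 105 and 283 under median-of-ratios scaling, and 394 and 297 with the replicate block.

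The SD of the ratio, 0.149 at 1 Mb, was 0.181 at 100 kb and 0.328 at 10 kb, and 0.131 to 0.168 with a single H2AX library. The own SD of γH2AX, 0.147 at 1 Mb, was 0.175 at 100 kb and 0.302 at 10 kb. The span over chromosomes, 0.384, was 0.295 with a pseudocount of 0.25 and 0.345 to 0.424 with a single H2AX library. The difference between the highest and lowest of 5 classes of H2AX level, 0.0327, turned to -0.0292 over R2 ranked by R1, and to -0.0242 within chromosomes in that ranking (chosen after seeing the data); the cause was not tested. Gene groups were not run. Levels relative to a library mean cannot show a change of the mark over the whole genome, and a single γH2AX library gives no spread of its own.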

Other observations

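Some 1-Mb windows stood apart from the relation between the HepG2 ratio and the K562 24 h ratio. They were chosen after their values were seen and are given with no test. Around a straight line of slope 0.508 over 2789 windows, the SD of the distance was 0.0680. The distance depends on the K562 24 h ratio as well as on the HepG2 ratio. On chromosome 19 the window from 22000001 lay 0.34 above the line and that from 53000001 lay 0.30 above. The latter had 0.708 in γH2AX, against 0.631 and 0.680 in H2AX, and a K562 24 h ratio of -0.34. There γH2AX exceeded H2AX R2 by less than the replicates differed (log2 R1 over R2 -0.10). On chromosome 7 the windows from 63000001 and 56000001 lay 0.32 and 0.29 above. On chromosome 17 the window from 79000001 had a distance of -0.29, and on chromosome 9 that from 139000001 one of -0.26. On chromosome 11 the windows from 70000001 and 128000001 had -0.25 and -0.24.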
